A study of Mus musculus with 28 samples.

Results

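The genes of the 3 fibrinogen chains, *Fga*, *Fgb*, and *Fgg*, and of the fibrinogen-like protein *Fgl1* were followed in the liver of mice with diet-induced NASH (nonalcoholic steatohepatitis, a fatty liver with inflammation and fibrosis) that received vehicle or 1 of 2 agonists of the bile acid receptor FXR. These 4 genes were taken from the 21935 genes of the count table by their Ensembl identifiers, and 4 of 4 were among the 12580 genes that passed the filter on low counts. The chain genes were chosen because they are reported targets of FXR. *Fgl1* was selected on its measured expression, which differed strongly between the 2 drugs in these mice, so its values are given as a description, with no test, in every comparison that uses them.

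Fibrinogen is a soluble plasma protein that hepatocytes build from paired alpha, beta, and gamma chains, encoded by *Fga*, *Fgb*, and *Fgg*, and secrete into the blood, where thrombin turns it into the fibrin mesh of a clot. The chain genes lie side by side, are strongly expressed in the healthy liver, and are classic acute phase genes, raised by interleukin 6 and glucocorticoids during inflammation. *Fgl1*, also called hepassocin, shares the fibrinogen-like domain with the chains but takes no part in clotting. It is secreted mainly by hepatocytes and is known as a growth factor for these cells and as a ligand of the T cell receptor Lag3.

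All 28 mice were male B6.V-Lepob/JRj animals, which carry the Lep ob/ob mutation, lack leptin, and become obese. They were obtained at 5 weeks of age and kept on AMLN diet, which is high in trans fat, fructose, and cholesterol, for 14 weeks before treatment and throughout it. Liver was taken after 2 weeks of oral treatment once daily with the carrier alone (vehicle, 10 mice), obeticholic acid at 30 mg/kg (OCA, 9 mice), or INT-787 at 30 mg/kg (9 mice), and polyadenylated RNA was sequenced as 1 library per mouse. Both drugs were thus compared at the same dose and time, no lean or untreated mice were sequenced here, and the study stratified the mice by body weight at randomization, with 10 per group.

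Total counts ranged from 1009593 to 18342272 in vehicle mice, from 10990531 to 22421506 in OCA mice, and from 12513715 to 22128216 in INT-787 mice. The lowest total belonged to vehicle replicate 6, which still held 3471 counts on *Fga* and 338 on *Fgl1*. In vehicle replicate 5, genes lying mostly under exons of another gene on the opposite strand took 0.37% of all counts, compared with 0.191% to 0.257% in the other 27 mice. Both mice were kept. Levels are CPM, the share of a library's counts in parts per 1000000 after TMM scaling. The p values set a difference or a correlation against the variation between these mice. In whole liver, fewer cells of a type and less RNA per cell cannot be told apart.

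*Fgg* (ENSMUSG00000033860, chr3:83007724-83015049, plus strand, GRCm38), *Fga* (ENSMUSG00000028001, chr3:83026076-83033627, plus strand), and *Fgb* (ENSMUSG00000033831, chr3:83040141-83049863, minus strand) lie within 42.1 kb of chromosome 3, and *Fgl1* (ENSMUSG00000031594, chr8:41191434-41215156, minus strand) lies apart on chromosome 8. All 4 are protein coding. Exons of *Fgg* share 115 bases with exons of the lincRNA *Gm30097* on the opposite strand, whereas the other 3 genes share none. The coding transcripts of any 2 of the 4 genes have at most 17 bases in a row in common, far below the 75 sequencing cycles, so their reads are not easily exchanged.

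The promoters of the chain genes are shown because the 3 genes moved together across mice, as described further on. Each line gives the 250 bases before the RefSeq start (GRCm38.p6), read 5′ to 3′ on the strand of the gene, with capitals marking matches on either strand to the 4 searched motifs that were found.

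Fga: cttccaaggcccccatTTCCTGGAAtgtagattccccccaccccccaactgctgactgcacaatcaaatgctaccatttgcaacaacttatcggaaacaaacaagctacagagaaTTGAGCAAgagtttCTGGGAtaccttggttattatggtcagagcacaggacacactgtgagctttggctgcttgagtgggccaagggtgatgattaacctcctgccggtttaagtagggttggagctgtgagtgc
Fgb: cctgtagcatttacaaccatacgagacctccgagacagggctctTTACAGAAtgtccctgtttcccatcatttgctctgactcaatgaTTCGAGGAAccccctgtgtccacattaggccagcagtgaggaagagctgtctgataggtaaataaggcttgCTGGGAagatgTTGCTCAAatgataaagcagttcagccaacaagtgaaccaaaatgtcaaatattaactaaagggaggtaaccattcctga
Fgg: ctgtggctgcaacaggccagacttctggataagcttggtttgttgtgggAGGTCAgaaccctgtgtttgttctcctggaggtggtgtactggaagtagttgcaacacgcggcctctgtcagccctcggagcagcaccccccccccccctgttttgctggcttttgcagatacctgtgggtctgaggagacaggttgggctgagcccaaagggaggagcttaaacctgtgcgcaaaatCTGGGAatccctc

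The windows are chr3:83025903-83026152 for *Fga*, chr3:83049864-83050113 for *Fgb*, and chr3:83007474-83007723 for *Fgg*. For *Fga* alone the RefSeq start differs from the gene start given above (chr3:83026076), so the last bases of its window lie inside the gene as annotated there. All 3 hold CTGGGA, the core of the interleukin 6 response element first described in acute phase promoters, as do 26.8% of 27025 promoters of the same length. *Fga* and *Fgb* also hold the C/EBP pattern TTNNGNAA (36.9% of promoters) and the STAT pattern TTCNNNGAA (7.18%). *Fgg* alone holds AGGTCA, a half-site for nuclear receptors (13.8%). None of the 3 holds TATAAA (13%) or the FXR inverted repeat (0.0074%, or 2 promoters). None of the printed matches shares bases with another, they describe letters only, and no entry for *Fgl1* was found in the promoter table.

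In vehicle mice the 3 chain genes together took a mean of 0.975% of the TMM-scaled library total, and *Fgl1* took 0.0351%. Per kilobase of exon, the mean level in vehicle mice was highest for *Fgg* (1416 ± 299 CPM per kb, SD, n = 10), followed by *Fga* (1145 ± 181), *Fgb* (878 ± 145), and *Fgl1* (79.1 ± 21). The ranges of *Fgg* (1027 to 1861), *Fga* (920 to 1424), and *Fgb* (640 to 1085) overlapped between neighbours in this order, whereas *Fgl1* (50.9 to 108.7) lay below all of them. The order of the means was the same in the OCA and the INT-787 mice.

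*Fga*, the alpha chain with the sites cut by thrombin first, had a lowest, median, and highest level of 2769, 3434, and 4286 CPM in vehicle mice. The same values were 3011, 4443, and 5432 CPM with OCA and 2981, 3431, and 3657 CPM with INT-787. The OCA mice sat highest, with 7 of 9 above every vehicle mouse, and the INT-787 mice lay inside the vehicle range and closer together than either other group. The coefficient of variation was 7.29% with INT-787, 15.8% with vehicle, and 17% with OCA.

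*Fgb*, the beta chain, ranged from 2439 to 4134 CPM in vehicle mice (median 3512), from 2939 to 5067 CPM with OCA (median 4335), and from 2616 to 4071 CPM with INT-787 (median 3457). The pattern was that of *Fga*. Again 7 of 9 OCA mice lay above every vehicle mouse, and no INT-787 mouse left the vehicle range.

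*Fgg*, the gamma chain, which carries the main binding sites for platelets and leukocytes, ranged from 2149 to 3895 CPM in vehicle mice (median 3020), from 2513 to 4520 CPM with OCA (median 3696), and from 2046 to 3028 CPM with INT-787 (median 2920). Here 3 of 9 OCA mice lay above every vehicle mouse, and INT-787 replicate 2, at 2046 CPM, lay below every vehicle mouse. OCA replicate 8 was the lowest OCA mouse for all 3 chains.

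*Fgl1* ranged from 225.7 to 481.8 CPM in vehicle mice (median 336), from 231.1 to 431.1 CPM with OCA (median 278), and from 38.2 to 113.4 CPM with INT-787 (median 45.9). The vehicle and OCA mice overlapped widely, and 9 of 9 INT-787 mice lay below every mouse of both other groups. Among the INT-787 mice, replicates 8 (113.4 CPM) and 3 (82.7 CPM) were the highest and the other 7 had 38.2 to 56.3 CPM. Each INT-787 library held 462 to 1624 counts on *Fgl1*, so the low level does not rest on a handful of reads.

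**Figure D1:**
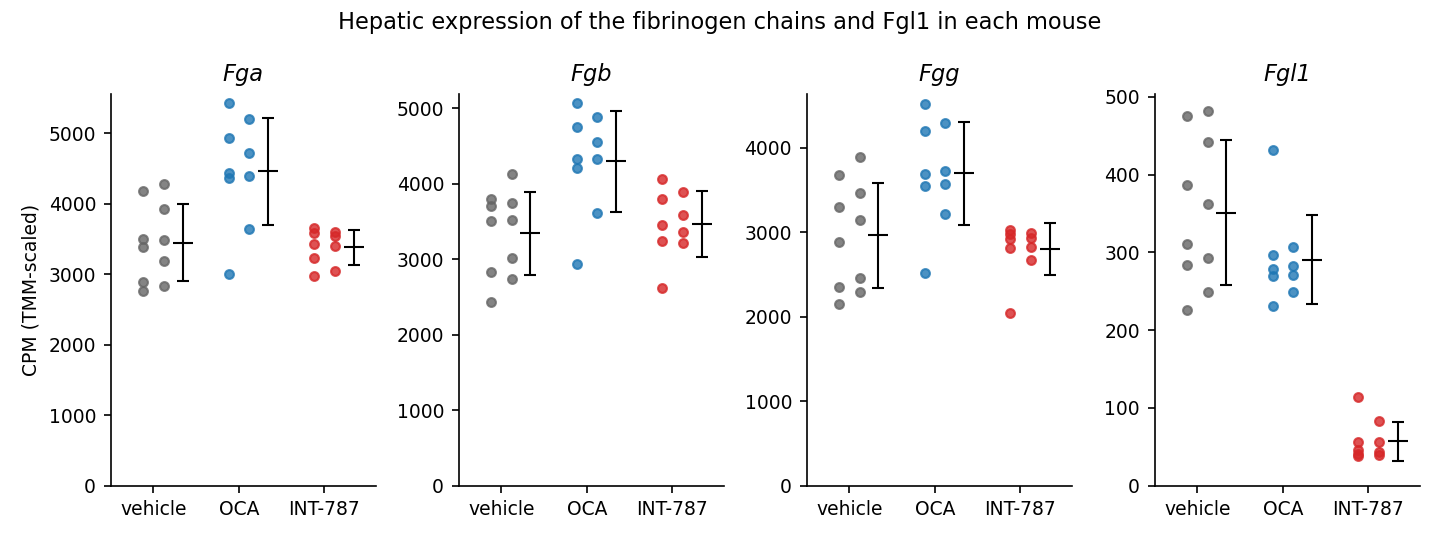
Levels of the 4 genes in each mouse (CPM scaled by TMM factors, linear axis from 0, other range in each panel), with 1 point per mouse (10 vehicle, 9 OCA, and 9 INT-787) and the mean ± SD in black. The OCA mice sat highest for the 3 chains, and the INT-787 mice, from 38.2 to 113.4 CPM, lay below all others for *Fgl1*.

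OCA raised *Fga* and *Fgb* compared with vehicle. Mean *Fga* was 4460 ± 756 CPM with OCA (SD, n = 9) and 3445 ± 545 CPM with vehicle (n = 10), a log2 fold change of 0.37 (SE 0.10, 1.3-fold, adjusted p = 0.0219, edgeR's quasi-likelihood test, adjusted by Benjamini and Hochberg's method across the 12580 genes). *Fgb* went from 3344 ± 552 to 4299 ± 666 CPM, a log2 fold change of 0.36 (SE 0.11, adjusted p = 0.0377). For *Fgg*, with 2964 ± 625 CPM in vehicle mice and 3699 ± 608 CPM in OCA mice, the log2 fold change of 0.32 (SE 0.12) did not pass the threshold (adjusted p = 0.105), and its 95% interval ran from 0.08 to 0.56. In this comparison 6.6% of all genes tested were called in either direction with adjusted p no higher than 0.05, the threshold used throughout. The *Fgb* call was lost in 7 of 12 other ways of fitting the counts and the *Fga* call in 3 of 12, with adjusted p up to 0.146 and 0.125, although both log2 fold changes stayed above 0.30. When each mouse was left out in turn, the *Fgb* call was lost in 12 of 28 fits (adjusted p up to 0.0817) and the *Fga* call without OCA replicate 9 (0.0559), whereas *Fgg* passed without OCA replicate 8 (0.38, adjusted p = 0.0329).

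INT-787 left the 3 chains without a called change compared with vehicle, although 19.6% of all genes were called. Mean levels with INT-787 were 3385 ± 247 CPM for *Fga*, 3471 ± 436 for *Fgb*, and 2801 ± 304 for *Fgg* (SD, n = 9). The log2 fold change was −0.03 for *Fga* (95% interval −0.24 to 0.18, adjusted p = 0.904), 0.05 for *Fgb* (−0.17 to 0.27, adjusted p = 0.785), and −0.08 for *Fgg* (−0.32 to 0.16, adjusted p = 0.686). These intervals leave room for a small change in either direction, and the sign of the *Fga* and *Fgb* values turned in 1 of 12 other fits each.

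With INT-787 compared directly with OCA, *Fga* was lower by a log2 fold change of −0.40 (SE 0.11, 1.32-fold, adjusted p = 0.021) and *Fgg* by −0.40 (SE 0.12, 1.32-fold, adjusted p = 0.0438). *Fgb* was lower by −0.31 (SE 0.11) without passing the threshold (adjusted p = 0.103, 95% interval −0.54 to −0.08). Of all genes, 5.38% were called. The *Fga* call was lost in 1 of 12 other fits and the *Fgg* call in 6 of 12, where adjusted p reached 0.0728 and 0.117. Without 1 mouse, the *Fgg* call was lost in 18 of 28 fits (adjusted p up to 0.101), and without OCA replicate 8 *Fgb* was called too (−0.36, adjusted p = 0.0462). In the mice of the sets of neighbouring label numbers, which leave out vehicle replicate 4 and OCA replicate 9, the calls of *Fga* and *Fgb* with OCA (adjusted p = 0.0966 and 0.131) and of *Fgg* between the drugs (0.079) were lost without any factor, and *Fga* between the drugs was still called (−0.36, adjusted p = 0.0411). With the sets as a factor in these mice, that call was lost too (−0.35, adjusted p = 0.0728). This comparison uses the same OCA mice as the comparison of OCA with vehicle, so it is not a second, separate observation of their high chain levels.

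Taken as a description, *Fgl1* had a mean of 351 ± 93.1 CPM in vehicle mice, 291 ± 57.5 CPM in OCA mice, and 57.3 ± 25.2 CPM in INT-787 mice (SD, n = 10, 9, and 9). The fitted log2 fold change was −2.62 (SE 0.19), or 6.13-fold lower, for INT-787 compared with vehicle and −2.34 (SE 0.19), or 5.08-fold lower, for INT-787 compared with OCA. It was −0.27 (SE 0.18) for OCA compared with vehicle. Ordered from the lowest log2 fold change, *Fgl1* stood at position 16 of 12580 genes for INT-787 compared with vehicle and at position 3 for INT-787 compared with OCA. Groups without overlap in either direction were seen for 2.66% of all genes in the former comparison and for 0.509% in the latter.

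**Figure D2:**
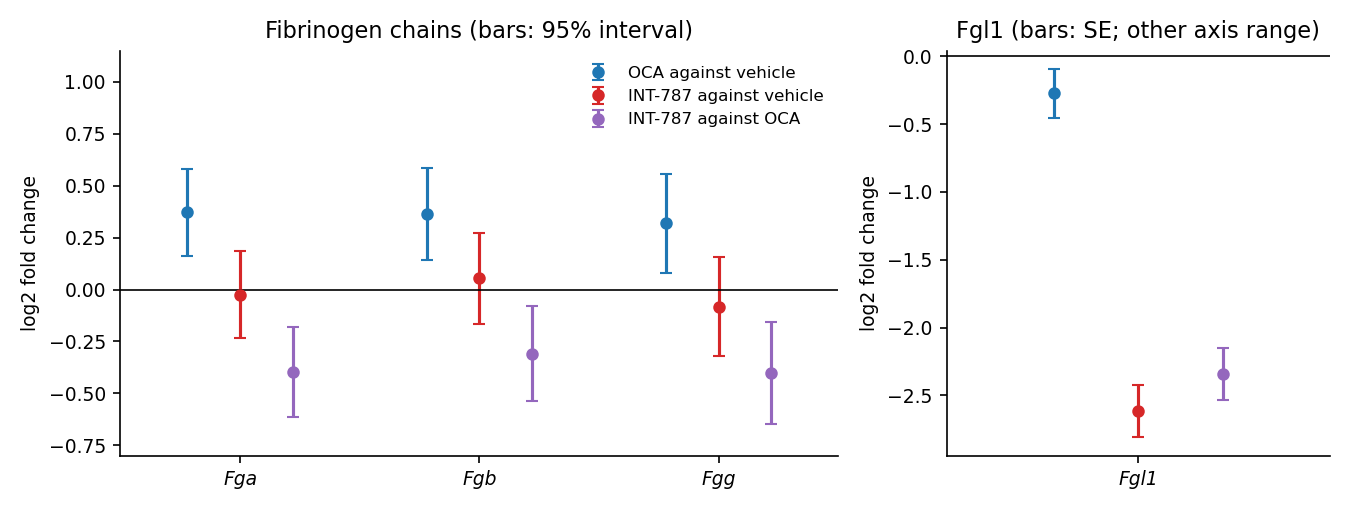
Log2 fold change of each gene in the 3 comparisons from the edgeR model of all 28 mice, with 95% intervals for the chains (left) and SE for *Fgl1* (right, with a wider axis range). The chain values lie between −0.40 and 0.37, whereas *Fgl1* lies at −2.62 and −2.34 in the comparisons with INT-787.

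The proportions of the chains to each other were compared as count ratios, in which library size cancels. The geometric mean of *Fga* to *Fgb* was 1.032 in the vehicle mice, 1.035 in the OCA mice, and 0.98 in the INT-787 mice. That of *Fgg* to *Fgb* was 0.88 in vehicle mice, 0.859 in OCA mice, and 0.808 in INT-787 mice. The largest difference, in *Fgg* to *Fgb* for INT-787 compared with vehicle, was −0.12 on the log2 scale (exact two-sided permutation p = 0.0403, and 0.242 after adjustment over 6 tests), and no ratio differed after adjustment. The ratio of *Fgg* to *Fgb* spanned 0.814 to 1.05 in vehicle, 0.818 to 0.892 in OCA, and 0.691 to 0.902 in INT-787 mice, and its highest value belonged to vehicle replicate 5.

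Within groups, the 3 chains rose and fell together from mouse to mouse. After group means were removed from log2 CPM in the 28 mice, Pearson's r was 0.91 between *Fgb* and *Fgg* (Spearman's rho 0.82), 0.88 between *Fga* and *Fgg* (rho 0.79), and 0.86 between *Fga* and *Fgb* (rho 0.78). Each Pearson p was 1e-05, the smallest that the 100000 permutations within groups can give (4.7e-05 after adjustment over 14 relations), and each adjusted p of rho was 9.3e-05. Without the 2 mice farthest from the median of the first gene, r was 0.86, 0.83, and 0.80 in the same order. By group, r for *Fgb* and *Fgg* was 0.95 in vehicle, 0.98 in OCA, and 0.72 in INT-787 mice, and for *Fga* and *Fgb* it was 0.91, 0.96, and 0.50, beside the narrower spread of the INT-787 mice.

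*Fgl1* did not show such a relation to the chains. Its r was −0.10 with *Fga* (rho −0.17), 0.32 with *Fgb* (rho 0.25), and 0.19 with *Fgg* (rho 0.13), with adjusted permutation p of 0.545, 0.128, and 0.349 for r and of 0.395, 0.256, and 0.524 for rho. Without the 2 farthest mice these r were −0.08, 0.29, and 0.15.

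**Figure D3:**
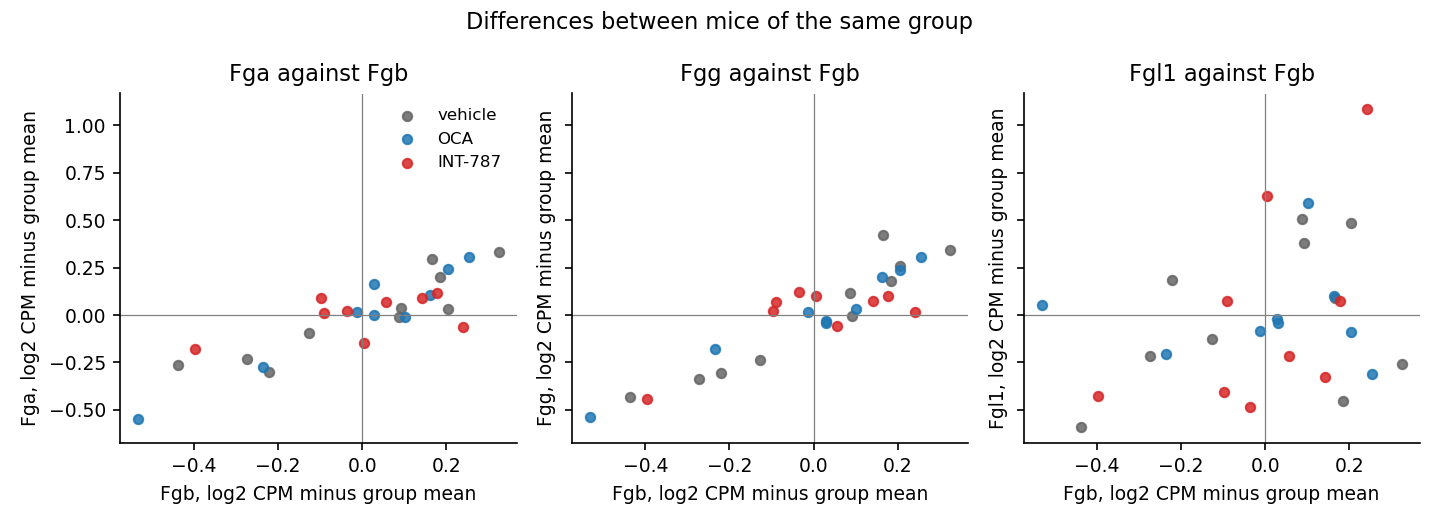
Log2 CPM of *Fga*, *Fgg*, and *Fgl1* (vertical axes) plotted against *Fgb* (horizontal axis), each after subtraction of the mean of its group, with 1 point per mouse and color by group. The *Fga* and *Fgg* points follow *Fgb* (r = 0.86 and 0.91), whereas the *Fgl1* points scatter (r = 0.32).

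Each gene was also ranked for likeness to all 9354 genes with a mean of at least 5 CPM, by the same within-group r over 28 mice. For each chain the first and second most alike genes were the other 2 chains. After them, *Fga* was most like *Tfpi2* (r = 0.78), a protease inhibitor, and then *AI182371* and *Lactb2* (both 0.73). *Fgb* was most like *Lap3* (0.75), an aminopeptidase, *Osbpl9* (0.73), and *Maob* (0.71). *Fgg* was most like *Crp* (0.81), C-reactive protein, then *Serpina1d* (0.77), an alpha-1 antitrypsin gene with near-identical copies, and *Cyp3a11* (0.76). *Fgl1* had different companions, namely *Dbr1* (0.85), which debranches intron lariats, *Nedd8* (0.80), *Lrrfip2* (0.79), *Chmp2a* (0.79), and *Sbds* (0.79). Ranked for likeness to *Fga*, *Fgb*, and *Fgg*, *Fgl1* came at positions 6476, 1370, and 2729. The genes compared were measured in the same libraries, which differ in depth, and the ranks are a description.

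The nearest tested neighbours of the chain genes did not repeat the pattern of the chains. *Plrg1*, a splicing factor gene 5.66 kb from *Fgb*, had 31.1 ± 5.14 CPM in vehicle mice, 30 ± 2.96 in OCA mice, and 31.3 ± 2.64 in INT-787 mice (SD) and was called in no comparison. On the other side, *Lrat*, 103.8 kb from *Fgg*, fell by 0.55 on the log2 scale with INT-787 compared with vehicle (adjusted p = 0.00404). *Map9* and *Tlr2*, the next tested genes outwards, lie far off, at 612.5 and 786.4 kb, and were not called. *Map9* was near the floor, with a mean of 1.01 CPM in vehicle mice. Beside *Fgl1*, *Pcm1* (24.6 kb) and *Mtus1* (57.7 kb) were not called, *Asah1* fell by 0.29 with INT-787 compared with vehicle (adjusted p = 0.0217), and *Pdgfrl*, with group means of 0.705 to 1.79 CPM, was lower with INT-787, by −1.13 compared with vehicle (adjusted p = 0.0111) and by −1.36 compared with OCA (adjusted p = 0.0079).

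The chains belong to the positive acute phase proteins, and 21 other genes of that kind were tested. The counts in this and the following lists stand against 6.6% of all genes called with OCA and 19.6% with INT-787 compared with vehicle, and 5.38% between the drugs. Ranges of a count without 1 mouse come from 28 fits, each leaving out another mouse. Compared with vehicle, OCA raised 6 of them (median log2 fold change 0.27, against 0.02 over all genes), whereas INT-787 raised 2 (1 to 3 without 1 mouse) and lowered 10 (median −0.33, against −0.001 over all genes). Compared with OCA, 12 were lower with INT-787 (9 to 12 without 1 mouse). The members that rose most with OCA were *Itih3* (0.69), *Serpina3m* (0.66), *C3* (0.53), and *Itih4* (0.50), and those lowest with INT-787 compared with OCA were *Saa2* (−1.82), *Saa1* (−1.77), *Lcn2* (−1.56), and *Orm2* (−1.34). *Saa1*, *Saa2*, and *Orm2* have near-identical copies that can exchange reads. In log2 fold change of INT-787 compared with vehicle, *Fgl1* (−2.62) lay below all 21 of these genes (lowest −1.68), and the 3 chains (−0.08 to 0.05) lay above their median.

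Within groups, the mean of these acute phase genes correlated with *Fgg* (r = 0.56, rho 0.65, adjusted permutation p = 0.0179 and 0.00403) but did not pass with *Fgb* (r = 0.41, rho 0.45, adjusted p = 0.0802 and 0.0588), *Fgl1* (r = 0.33, rho 0.38, 0.128 and 0.107), or *Fga* (r = 0.30, rho 0.32, 0.206 and 0.185). Without the 2 mice farthest from the median of the gene, r was 0.57 for *Fgg*, 0.33 for *Fgb*, 0.35 for *Fgl1*, and 0.26 for *Fga*. Of 7 negative acute phase proteins, which fall in inflammation, OCA raised 3, among them *Ahsg* (0.66), and INT-787 raised 4, among them *Rbp4* (0.63), although the count with INT-787 was 1 with upper-quartile factors, 2 without vehicle replicates 5 and 6, and 1, *Rbp4* alone, without INT-787 replicate 6. Of 14 genes of interleukin 6 and related signalling, *Il1r1* rose with OCA (0.60, a call lost with DESeq2 size factors or upper-quartile factors in place of TMM and without vehicle replicates 5 and 6, and in 18 of 28 fits without 1 mouse), *Osmr* fell by 0.61 with INT-787 (lost in 7 of 28), and 0 differed between the drugs (edgeR, with 0 at an unadjusted p under 0.05 and 0 by DESeq2).

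Among the genes that act with fibrinogen in clotting, 17 coagulation factors were tested. INT-787 raised 7 of them (41.2%, against 19.6% of all genes called), OCA raised 4 (23.5%, against 6.6%), and 1 differed between the drugs (5.88%, near the 5.38% of all genes). *F7* rose by 0.69 (OCA) and 0.50 (INT-787), and *Klkb1*, prekallikrein, by 0.75 and 0.71. *F11* showed the pattern of the chains, at 26.5, 40.1, and 27.7 CPM in the vehicle, OCA, and INT-787 mice (log2 fold change −0.54 for INT-787 compared with OCA, adjusted p = 0.0138). *F13b*, a subunit of the enzyme that cross-links fibrin, rose by 0.52 with INT-787. Of 9 inhibitors of coagulation, INT-787 raised 4, including antithrombin *Serpinc1* (0.56) and heparin cofactor *Serpind1* (0.67), and lowered 3, including *Pros1* (−0.57), whereas OCA raised 2 (2 to 4 without 1 mouse). The count lowered was 1 without vehicle replicates 5 and 6 and 1 to 3 without 1 mouse (1 without vehicle replicate 5, 6, or 9 or INT-787 replicate 2, 3, 4, or 9).

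Of 14 genes of fibrinolysis, the breakdown of fibrin, OCA raised 4, namely *Hrg* (0.56), *Serpinf2* (0.55), *Cpb2* (0.42), and plasminogen *Plg* (0.30). Without 1 mouse, the *Plg* call was lost in 13 of 28 fits and the *Cpb2* call without OCA replicate 9, where the count was 2. INT-787 raised 2 and lowered 5, with *Hrg* at 0.83 and the tissue plasminogen activator *Plat* at −0.80. Compared with OCA, INT-787 mice had 4 lower (2 to 6 without 1 mouse, with 3 without OCA replicate 8 and 2 without OCA replicate 9), among them *Cpb2* (−0.43, lost without OCA replicate 9) and *Serpine2* (−1.34). For *Serpine2*, OCA replicate 8 had 109.2 CPM against a median of 20.6 in the OCA mice, and without it the log2 fold change was −0.80 (adjusted p = 0.0163). Of 11 receptors of fibrinogen, fibrin, or *Fgl1*, INT-787 lowered 4 compared with vehicle, among them the leukocyte integrin chains *Itgax* (−0.59) and *Itgb2* (−0.48). The count was 2 to 5 without 1 mouse, and 2 without INT-787 replicate 3, 6, or 9, as the calls of *Icam1* and *Cdh5* were lost in 10 and 6 of 28 fits. With OCA compared with vehicle, 0 of them were called (edgeR, with 2 at an unadjusted p under 0.05 and 0 by DESeq2). Of 11 other genes with a fibrinogen-like domain, *Tnc* fell by 1.20 with INT-787 (2 genes fell without OCA replicate 8), *Fcna* fell by 0.79 with OCA, and 3 differed between the drugs, with *Tnc* (−1.70) and *Mfap4* (−1.17) lower and *Fcna* (1.06) higher with INT-787. OCA replicate 8 had 38.8 CPM of *Mfap4* against a median of 8.04 in the OCA mice, and without it *Mfap4* was not called (−0.67, adjusted p = 0.11), which left *Tnc* as the 1 lower.

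Genes that answer to FXR in bile acid handling moved with both drugs. Of 7 such genes, OCA raised 3 and lowered 2 and INT-787 raised 4 and lowered 2. *Abcb11*, the bile salt export pump, rose by 1.19 (OCA) and 1.70 (INT-787), and *Cyp7a1*, which starts the conversion of cholesterol into bile acids, fell by 2.54 and 2.28. The 3 chains had their highest means in the OCA mice, whereas *Abcb11* had its highest in the INT-787 mice (log2 fold change 0.50 compared with OCA, adjusted p = 0.0307, lost in 6 of 28 fits without 1 mouse, up to 0.0741). Of 16 hepatocyte transcription factors, OCA raised 2 and INT-787 raised 4 and lowered 2, with *Nr0b2*, the FXR target SHP, at 1.17 and 1.62. The count raised with OCA was 1 under both other scalings and without vehicle replicates 5 and 6, and that with INT-787 was 1 with upper-quartile factors and 2 without vehicle replicate 5. The call of *Nr5a2* with OCA (0.28) was lost in 21 of 28 fits without 1 mouse. Of 15 chaperones of the secretory path in which the chains are assembled, OCA raised 3 (*Pdia6*, *Hsp90b1*, and *P4hb*, 0.32 to 0.41) and INT-787 raised *P4hb* (0.31), with a count of 2 by DESeq2 or without OCA replicate 8. The count with OCA was 1 under both other scalings and 0 without vehicle replicates 5 and 6, and without 1 mouse the *Pdia6* call was lost in 18, the *Hsp90b1* call in 13, and the *P4hb* call in 1 of 28 fits (without OCA replicate 3, where the count was 0).

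**Figure D4:**
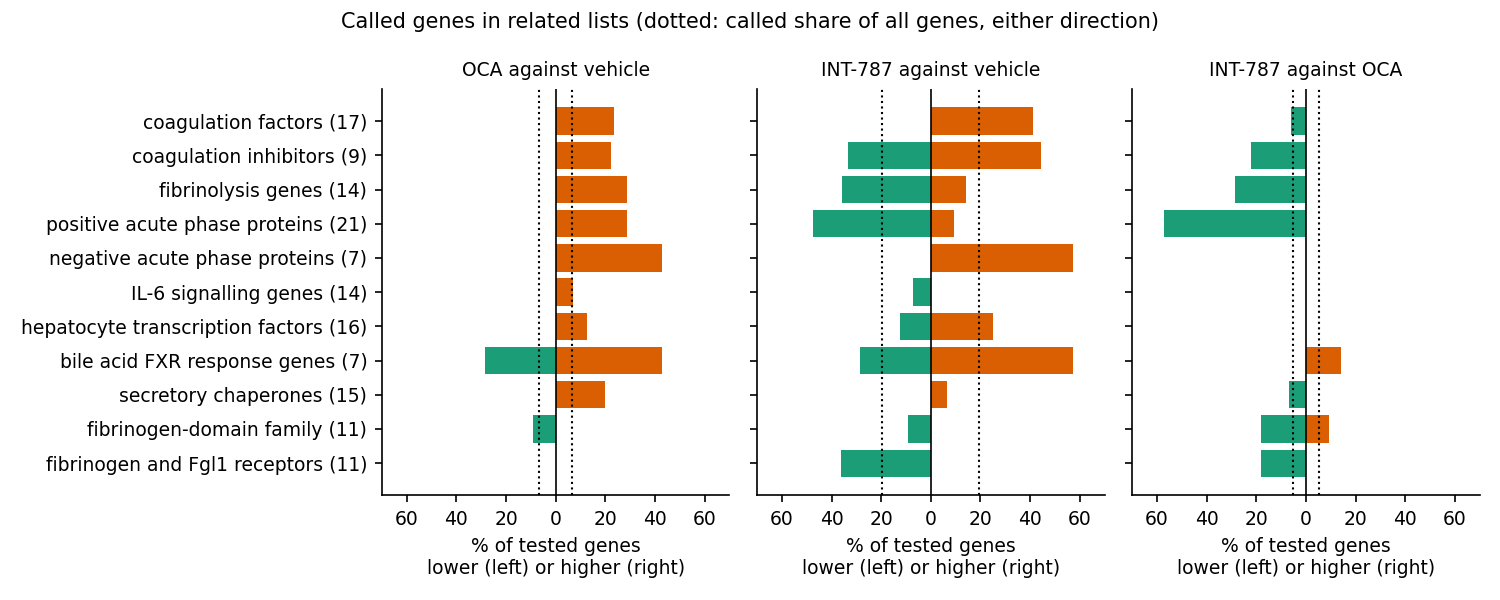
Share of the tested genes of each related list (number tested in parentheses) that were called higher (right, orange) or lower (left, green) in the 3 comparisons, by edgeR with adjusted p no higher than 0.05. The dotted lines mark the share of all genes called in either direction (6.6%, 19.6%, and 5.38%), and the positive acute phase proteins lie to the right with OCA and to the left with INT-787.

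The liver identity of the samples was clear, as 10 hepatocyte markers, *Alb* among them, summed to 75700 to 146200 CPM in vehicle mice (median 100900), 120900 to 214000 with OCA (median 144100), and 110300 to 183300 with INT-787 (median 141500), and none was at 0 in every mouse. Both drugs raised 5 of the 10 compared with vehicle (3 with OCA under both other scalings, and 3 to 5 without 1 mouse) and 0 differed between the drugs (edgeR, with 2 at an unadjusted p under 0.05 and 0 by DESeq2). Within groups, the mean of these markers correlated with *Fgg* (r = 0.59, rho 0.52, adjusted permutation p = 0.00616 and 0.0195) and *Fgb* (r = 0.52, rho 0.47, 0.0179 and 0.0348), but did not pass with *Fga* (r = 0.39, rho 0.30, 0.0802 and 0.185) or *Fgl1* (r = 0.21, rho 0.26, 0.349 and 0.25). Without the 2 farthest mice, r was 0.55, 0.45, 0.47, and 0.28 in this order. The part of the hepatocyte markers in the chain levels was not tested.

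Some markers of stellate cells and macrophages were lower with INT-787, beside the low *Fgl1* of the same mice. The summed level of 8 stellate cell markers, from 1102 to 2032 CPM with vehicle and 1001 to 2611 with OCA, was 452 to 933 CPM with INT-787, with 5 of 8 lowered compared with vehicle, among them *Col1a1* (−1.25). That of 9 macrophage markers was 570 to 780, 454 to 1028, and 378 to 654 CPM, with 4 of 9 lowered. Without 1 mouse this count was 2 to 5, and 2 without INT-787 replicate 1 or 7 or vehicle replicate 1, as *Trem2* and *Gpnmb* were lost in 8 and 4 of 28 fits. *Marco*, another of the 9, lay the other way, at means of 3.79, 2.16, and 13.5 CPM, with a log2 fold change of 1.74 compared with vehicle (adjusted p = 0.0867) and 2.63 compared with OCA (adjusted p = 0.0371). INT-787 replicate 8 had 68.2 CPM of it against a median of 2.89 in its group, and without that mouse the value compared with OCA was 1.62 (adjusted p = 0.191). Of all genes, 19.6% were called with INT-787 compared with vehicle. Of 5 cholangiocyte markers 1 was lowered (*Spp1*, −0.74), a share of 20% that is near this background (2 without OCA replicate 8). Of 6 endothelial markers 2 were lowered. This count was 4 with upper-quartile factors, 1 without vehicle replicates 5 and 6, and 0 to 4 without 1 mouse. It was 0 without INT-787 replicate 3, 6, 8, or 9 or vehicle replicate 2. With OCA compared with vehicle, 0 were called in each of these 4 lists (edgeR, with 1, 1, 1, and 4 at an unadjusted p under 0.05 and 0 by DESeq2). The endothelial markers nevertheless had a median log2 fold change of −0.33 with INT-787 and −0.30 with OCA, each compared with vehicle. Between the drugs their median was −0.01, and 0 were called. None of 5 T cell markers or 4 platelet and blood markers was called in any comparison (edgeR, with at most 1 at an unadjusted p under 0.05 and 0 by DESeq2). The T cell markers summed to only 2.87 to 15.5 CPM in vehicle, 3.23 to 11.2 in OCA, and 3.13 to 11.9 in INT-787 mice. At such levels a change could be missed. Only 4 of 7 platelet and blood markers passed the count filter, and 0 to 1 fell with INT-787 compared with vehicle without 1 mouse. No marker in these lists was at 0 in every mouse, and their part in the *Fgl1* values was not tested.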

How the data were processed

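Liver RNA of 28 mice was sequenced from stranded TruSeq mRNA libraries (75 cycles). The authors aligned the reads to GRCm38 with Ensembl 89 annotation by STAR 2.5.2a and deposited raw counts per Ensembl gene, without normalization. The counting program and its use of strand are not given in the sources used here. Of 21935 genes, 21858 matched GENCODE M21 (GRCm38), and 0 columns belonged to other samples. Groups and replicate numbers came from the sample labels.

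The filter filterByExpr, applied to the 3 groups, left 12580 genes, which were scaled by TMM and tested with edgeR 4.0.16 (R 4.3.3; glmQLFit, glmQLFTest) in 1 model of the 3 groups, with p adjusted by the Benjamini-Hochberg method across these genes and a threshold of 0.05, as in the study. The single-gene adjusted p values come from this test unless another is named. CPM used TMM-scaled totals, and log2 CPM a prior count of 0.5. Count ratios were tested by exact permutation and within-group correlations by 100000 permutations within groups (Python 3.11.15, scipy 1.17.1). The edgeR script was tested on simulated data. Alternatives included DESeq2 1.42.0 and limma 3.58.1 (voom), other scalings and filters, replicate number or neighbouring label numbers as a factor, and each mouse left out.

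The 4 genes and the 18 lists of related genes were chosen with earlier results of these data known. Named are the 4 genes and, per list and comparison, up to 4 called genes with the largest absolute log2 fold change, the 5 genes most like each of the 4, and the 2 nearest tested genes on each side. Some items are not reported here. Library totals were 1009593 to 22421506, and any 2 libraries of a group differed by a chi-square of at least 3 per gene, more than sampling noise. Promoter sequences are from RefSeq (GRCm38.p6), and 3 of the 4 genes matched.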

Additional observations from a re-analysis of the deposited data

Results flagged for a closer look

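Single mice stood apart from the rest of their group in 3 of 18 sets of values examined (4 genes and 2 count ratios in 3 groups), where chance marks about 1 set in 20. *Fgg* was at 2046 CPM in INT-787 replicate 2, compared with 2675 to 3028 CPM in the other 8 mice. *Fgl1* was at 431.1 CPM in OCA replicate 7, compared with 231.1 to 306.9 CPM in the others. The count ratio of *Fgg* to *Fgb* was 1.052 in vehicle replicate 5, compared with 0.814 to 0.912 in the others. This is the mouse with the high share of counts on genes under opposite-strand exons (0.37%), and *Fgg* is the only 1 of the 4 genes with exons under such a gene. Whether the 115 shared bases account for the ratio was not tested.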

How the results depend on the processing

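The direction of the *Fga*, *Fgb*, and *Fgg* values for OCA compared with vehicle and for INT-787 compared with OCA held in all 12 alternatives and in all 28 fits without 1 mouse, as did that of *Fgl1*, but several calls were lost. *Fgb* with OCA compared with vehicle was no longer called with DESeq2 size factors (0.35, adjusted p = 0.0543), upper-quartile factors (0.33, 0.0604), no filter (0.36, 0.0657), only the 2 groups compared (0.35, 0.104), sets of neighbouring label numbers, which leave out vehicle replicate 4 and OCA replicate 9, as a factor (0.31, 0.146), these mice without the factor (0.31, 0.131), or without vehicle replicates 5 and 6 (0.36, 0.0668). *Fga* in that comparison was lost with only the 2 groups (0.36, 0.0905) and the sets with (0.30, 0.125) and without the factor (0.30, 0.0966), and in INT-787 compared with OCA with the factor only (−0.35, 0.0728). *Fgg* in INT-787 compared with OCA was lost with DESeq2 size factors (−0.39, 0.0533), no filter (−0.39, 0.0779), limma-voom (−0.39, 0.0526), and the sets with (−0.35, 0.117) and without the factor (−0.36, 0.079). For INT-787 compared with vehicle, *Fgb* turned to −0.0077 with upper-quartile factors and *Fga* to 0.00099 without vehicle replicates 5 and 6. The cause was not tested. Without the 2 farthest mice, r was 0.797, 0.83, and 0.864 for *Fga* with *Fgb*, *Fga* with *Fgg*, and *Fgb* with *Fgg*. Upper-quartile factors moved the share of called genes that were higher from 51.7% to 37.5% (INT-787 compared with vehicle) and from 62.9% to 52.3% (OCA compared with vehicle).

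With the replicate number as a block, *Fgg* in INT-787 compared with OCA was lost (−0.40, adjusted p = 0.063), no other call of the 3 chains changed, and the log2 ratio of *Fga* to *Fgb* for OCA compared with vehicle was −0.0144 over the pairs, as without the unpaired vehicle replicate 10 and no block. The block moved the genes called from 2469, 830, and 677 to 2417, 868, and 677. Of 27 pairs across groups with the same number, 11 had deviations correlated over 0.1 (median r = 0.07). So had 12 of 25 pairs of the same set (median 0.1) and 41 of 219 others (median −0.001). Pairs by number or set were more alike, which the main model ignores.

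When each mouse was left out in turn, the log2 fold change ranged from −0.0567 to 0.0141 for *Fga* (INT-787 compared with vehicle, positive without vehicle replicate 5 at 0.0094 or 9 at 0.0141), from 0.333 to 0.43 for *Fga* (OCA compared with vehicle, lost without OCA replicate 9 at 0.333), from 0.319 to 0.418 for *Fgb*, and from 0.276 to 0.376 for *Fgg* in that comparison. For INT-787 compared with OCA it ranged from −0.364 to −0.264 for *Fgb* and from −0.458 to −0.353 for *Fgg*. The *Fgb* call with OCA was lost in 12 of 28 fits (without vehicle replicates 1, 3, 4, or 6, OCA replicates 1, 2, 3, 4, 5, 7, or 9, or INT-787 replicate 9, adjusted p up to 0.0817), and the *Fgg* call between the drugs in 18 of 28 (without vehicle replicates 2, 7, or 10, OCA replicates 1, 2, 3, 4, 5, 7, or 9, or INT-787 replicates 2 to 9, adjusted p up to 0.101). Without OCA replicate 8, the lowest OCA mouse for the chains, *Fgg* rose with OCA (0.38, adjusted p = 0.0329), *Fgb* differed between the drugs (−0.36, 0.0462), and the genes called between the drugs, 443 to 888 over the 28 fits, were 443. The log2 ratio of *Fga* to *Fgb* for OCA compared with vehicle ranged from −0.0144 to 0.024, negative in 6 of 19 fits. Refits (lists under other scalings, DESeq2, without vehicle replicates 5 and 6 or OCA replicate 8, the sets without the factor, and lists and named genes without each mouse) were chosen after seeing the data. With INT-787 compared with OCA, 12 positive acute phase proteins were lower under other scalings, with DESeq2, and without vehicle replicates 5 and 6. Without 1 mouse the count was 9 to 12, with 11 without OCA replicate 8. In these refits 0 were called higher. Depth limits *Fgl1* most in vehicle replicate 6 (338 counts).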
